A study of Carya illinoinensis with 18 samples.

Results

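Leaf transcriptomes of pecan seedlings after 9 d without water were set against those after 6 d without water. The comparison took the 3 RNA-Seq libraries of each of these days and every gene with a mean of at least 0.1 FPKM over the 6 libraries, which gave 24005 of the 31074 genes of the table. FPKM divides the fragments of a gene by its transcript's length and by the total mapped in the library, so levels of different genes can be compared on it. All seedlings were grafted plants of the cultivar Pawnee on rootstocks raised from Pawnee seed, kept in a growth chamber, and each library came from leaves of at least 3 plants. The 9 d group was drought treated for 9 days and the 6 d group for 6 days, and both belong to a course of 18 libraries taken every 3 d up to 15 d, with untreated leaves as 0 d. Watered plants of the same age as the 9 d or 6 d leaves are not analysed here, so length of drought and age of the leaf cannot be told apart.

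As background, a leaf that loses water closes its stomata under the hormone abscisic acid, takes up less carbon dioxide, and changes the transcripts of many genes. Transcripts of protective proteins, of osmolyte synthesis and of hormone signalling are known to accumulate in such leaves, while those of photosynthesis and growth are known to decline. None of the identifiers of the table was found in the RefSeq gene table of pecan (0 of 31074), and the table itself pairs them with no name. Genes are therefore described by level and by course, 2 higher and 2 lower genes are given with their identifiers, and neither leaf marker genes nor drought pathways could be looked up. In whole leaves, fewer cells of a type and less RNA per cell cannot be told apart.

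The libraries of 9 d did not form one group. Replicate 1 of 9 d was most like replicate 1 of 12 d, with a Pearson correlation of log2(FPKM + 1) of 0.983 over the 24005 genes, and like replicate 3 of 12 d (0.957), whereas it correlated with replicates 2 and 3 of its own day at 0.875 and 0.914. Its fellow replicate 2 was nearest to replicate 2 of 6 d (0.971), and replicate 3 of 9 d was nearest to the same 6 d library (0.965). Between the days, the correlations of the 9 d with the 6 d libraries ran from 0.824 to 0.971, and those between libraries of 9 d from 0.875 to 0.961, so the span between the days covered the whole span within 9 d. At 6 d the correlations ran from 0.907 to 0.978, with replicate 3 the least like its day. Replicate 3 of 6 d was nearest to replicate 3 of 9 d (0.962) and then to replicate 2 of 12 d (0.948). It correlated with replicates 1 and 2 of its own day at 0.907 and 0.924, so 6 d did not form one group either. Replicate 2 of 12 d was in turn nearest to replicates 3 and 2 of 9 d (0.963 and 0.956). The libraries are given by their labels throughout, and whether labels of 9 d and 12 d were exchanged was not tested. These correlations are across genes, which are not independent replicates, and are given as a description with no test. No 2 of the 18 libraries were copies of each other, as at most 1071 of the tested genes had the same FPKM in any pair, and this pair was of 15 d.

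**Figure D1:**
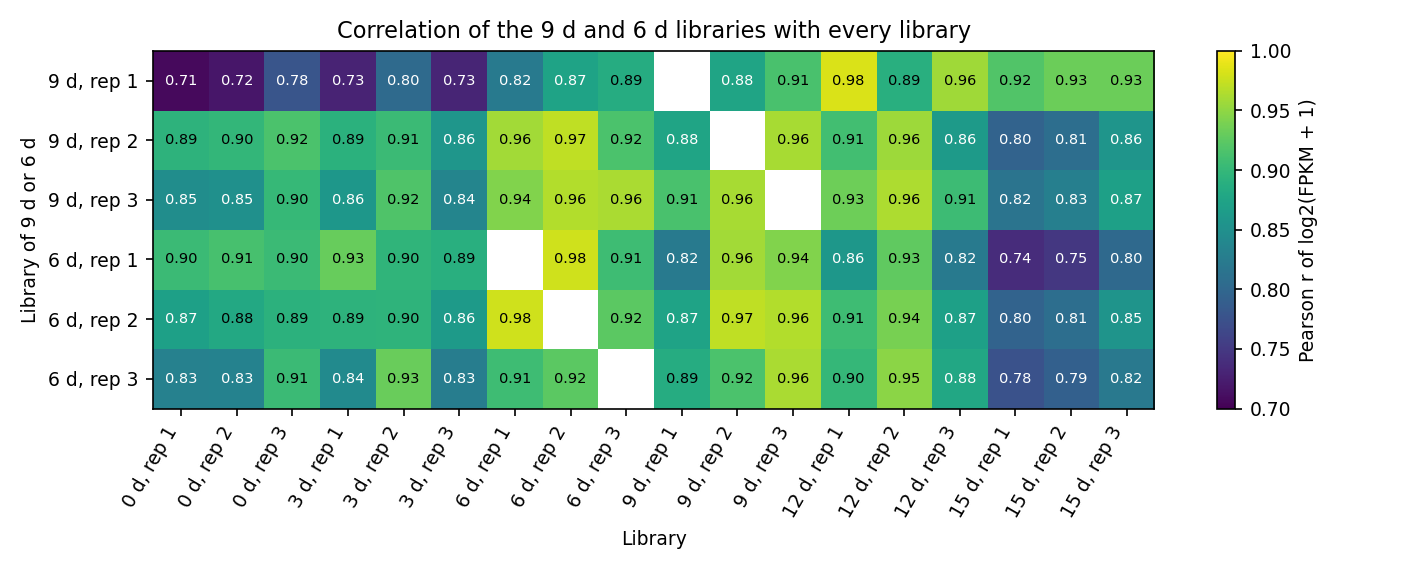
Pearson correlation of log2(FPKM + 1) over the 24005 tested genes between each library of 9 d (upper rows) or 6 d (lower rows) and each of the 18 libraries (columns, by day). Replicate 1 of 9 d is brightest at replicate 1 of 12 d (0.983) and dark towards 0 d. The other 9 d libraries are brightest at 6 d replicate 2, and nearly as bright at each other (0.961) and at 12 d replicate 2.

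Depth and the number of detected genes were compared between the libraries. The steps between low FPKM values gave relative depths of 0.822, 0.815 and 0.823 of the deepest library of the course for replicates 1, 2 and 3 of 9 d, and of 0.808, 0.846 and 0.915 for those of 6 d. In replicate 1 of 9 d there were 17853 genes at 1 FPKM or more, against 19858 and 19222 in the other 9 d libraries and 19946, 19923 and 18625 in the libraries of 6 d. Its median FPKM over the tested genes was 6.49, against 8.63 and 8.16 in the other 9 d libraries and 8.64, 8.80 and 7.70 at 6 d. The 100 most abundant transcripts held 18.1% of all FPKM in this library, 15.6% and 15.3% in the other 9 d libraries, and 17.2%, 14.2% and 17.1% in the libraries of 6 d.

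The spread between libraries was wider at 9 d than at 6 d. The median over genes of the SD of log2(FPKM + 1) between the 3 libraries was 0.322 at 9 d and 0.243 at 6 d. On the other days of the course it was 0.183 (0 d), 0.282 (3 d), 0.349 (12 d) and 0.172 (15 d), so 9 d stood second to 12 d (after quantile normalization also behind 3 d, at 0.292 for 9 d and 0.31 for 3 d). An SD of at least 1 was found for 2247 genes (9.36%) at 9 d and 1398 genes (5.82%) at 6 d, and the SD was larger at 9 d in 14266 genes (59.4%). The difference in spread was seen at every level but the lowest. Genes with a mean of 100 FPKM or more had a median SD of 0.499 at 9 d and 0.278 at 6 d, and those of 10 to 100 FPKM 0.283 at 9 d and 0.198 at 6 d. Those of 1 to 10 FPKM had 0.416 at 9 d and 0.304 at 6 d, and those of 0.1 to 1 FPKM 0.248 at 9 d and 0.25 at 6 d. Within 9 d, the median difference between a pair of libraries, divided by the square root of 2, was 0.162 for replicates 2 and 3, 0.293 for replicates 1 and 3 and 0.337 for replicates 1 and 2. At 6 d the same measure was 0.145, 0.222 and 0.240, so replicates 2 and 3 of 9 d were as close to each other as the libraries of 6 d. The 3 values of a day share their mean, so the spread was not tested.

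To place the 9 d and 6 d libraries on the course of the drought, 9530 genes were taken whose libraries of 15 d and 0 d did not overlap and whose means differed by at least 1 on the log2 scale. Of these, 3499 were higher and 6031 lower at 15 d. For each library the median over these genes of the fraction of the way from the mean of 0 d to the mean of 15 d was computed, and the libraries of 9 d and 6 d entered this only through the filter of 0.1 FPKM, without which the difference between the days was 0.18. On this scale replicate 1 of 9 d lay at 0.74, and replicates 2 and 3 at 0.279 and 0.352. The libraries of 6 d lay at 0.205, 0.320 and 0.304. Replicates 2 and 3 of 9 d thus fell within or just above the range of 6 d, and replicate 1 fell between the 12 d libraries at 0.671 and 0.843, while the remaining 12 d library was back at 0.243. The mean position was 0.457 ± 0.248 at 9 d and 0.276 ± 0.062 at 6 d (SD, n = 3 each). The difference of 0.181 was below the SD of 9 d and above that of 6 d. An exact permutation test (two-sided) gave p = 0.3, where 3 against 3 libraries cannot go below 0.1. Without 9 d replicate 1 the difference was 0.039.

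**Figure D2:**
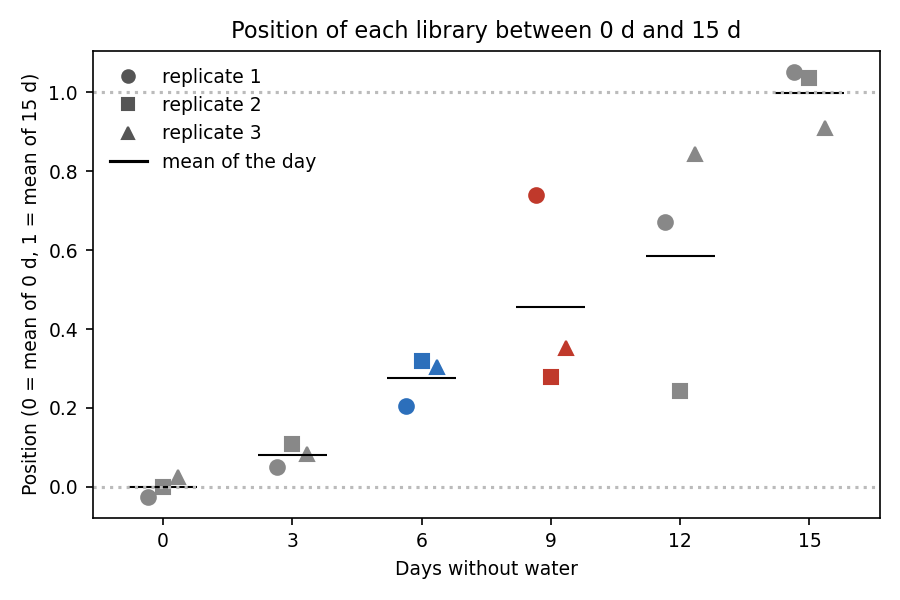
Position of each library on the way from the mean of 0 d (0) to the mean of 15 d (1), as the median over 9530 genes, against days without water. Symbols are the 3 replicates, black lines the means of the days, red the libraries of 9 d and blue those of 6 d. Replicate 1 of 9 d lies at 0.74 and the other 2 at 0.279 and 0.352, next to the 6 d libraries.

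Both directions of change were advanced in replicate 1 of 9 d. Over the genes that were higher at 15 d its position was 0.741, against 0.451 and 0.468 in replicates 2 and 3 of 9 d and 0.35, 0.482 and 0.360 in replicates 1, 2 and 3 of 6 d. Over the genes that were lower at 15 d its position was 0.739, against 0.217 and 0.285 in the other 9 d libraries and 0.150, 0.256 and 0.273 at 6 d. In the 5 other libraries of 9 d and 6 d the higher genes were thus further along than the lower genes, whereas in replicate 1 of 9 d both stood at the same point. Values were not scaled between libraries, and the median of all tested genes also lay off the mean of 0 d. It lay at 0.145, 0.177 and 0.064 on the log2 scale in replicates 1, 2 and 3 of 6 d. In those of 9 d it lay at -0.076, 0.157 and 0.111. An upward shift of all genes moves higher genes forward and lower genes back on this scale. Its part in the contrast was not tested. The midpoint of the way was passed by 76.3% of the 9530 genes in this library, by 24.2% and 34.3% in the other 9 d libraries, and by 18.3%, 27.9% and 31.9% at 6 d. For the 2 sets of genes the difference between the days had an exact permutation p of 0.3 (higher genes) and 0.4 (lower genes, two-sided, n = 3 each).

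The gene by gene test between the days found nearly nothing. In limma's fit of log2(FPKM + 1) to the days of all 18 libraries, with p-values adjusted after Benjamini-Hochberg across the 24005 genes, 1 gene was higher at 9 d at an adjusted p under 0.05, which is 0.00417% of the genes tested, and 0 genes were lower. At an unadjusted p under 0.05 there were 756 higher and 937 lower genes, together 7.05% of those tested. Were the days alike, a share of 0.05 would be expected at this limit. After quantile normalization there were 971 higher and 741 lower genes at this limit, and after median-ratio scaling 758 and 945. The median difference of all genes was -0.07 on the log2 scale. Relative to the mean of 6 d, it was -0.22 in replicate 1, 0.03 in replicate 2 and -0.01 in replicate 3 of 9 d. When limma weighted the libraries by their agreement with their own day, replicate 1 of 9 d received the lowest weight of all libraries (0.213). Replicates 2 and 3 of 9 d received 0.705 and 4.09, so the weighted mean of 9 d rested mostly on replicate 3. With these weights 150 of the 24005 genes were called higher and 285 lower. Without weights and with 9 d replicate 1 left out, limma called 0 genes in either direction. At an unadjusted p under 0.05 there were then 714 of the 24005 genes, a share below 0.05. With 9 d replicate 3 left out 8 were called higher and 28 lower. Without 9 d replicate 2 there were 2 higher and 1 lower, without 6 d replicate 1 0 in either direction, and without 6 d replicate 2 3 higher and 1 lower.

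The gene called, *CIL1352S0006*, was low in leaves up to 6 d and higher from 9 d on. It had 40.2, 11.9 and 15.9 FPKM in the 9 d libraries, against 0.21, 1.78 and 0.19 FPKM at 6 d. Every 9 d library lay above every 6 d library. The means were 22.7 ± 15.3 FPKM at 9 d and 0.727 ± 0.912 FPKM at 6 d (SD, n = 3 each), and limma gave a log2 fold change of 3.71 with a standard error of 0.44 and an adjusted p of 0.0142. Before drought, at 0 d, the gene had 1.52, 1.35 and 2 FPKM, and at 3 d 2.48, 1.61 and 3.31 FPKM. Its level was 44.6, 17.4 and 17.6 FPKM at 12 d and 68.1, 63.3 and 56.4 FPKM at 15 d, the highest of the course in all 3 libraries of that day. The gene was no longer called in a fit of the 6 libraries of 9 d and 6 d alone (adjusted p = 0.849), without 6 d replicate 1 (0.162) or without 9 d replicate 1 (0.0569). Over all alternatives its adjusted p ran from 0.00062 to 0.849 with a log2 fold change of 3.06 to 5.16, and the call stood in 23 of 26.

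*CIL1132S0030* had the largest difference of the genes whose libraries of 9 d and 6 d did not overlap and whose mean was at least 10 FPKM on the day of the higher level. It was chosen after its values were seen. It had 3296, 72.0 and 34.9 FPKM in the 9 d libraries and 3.60, 3.43 and 2.22 FPKM in those of 6 d. All 9 d libraries were higher than all 6 d libraries, but replicate 1 of 9 d was far above both others. Its log2 fold change of 5.67 had a standard error of 1.36, and limma did not call it (adjusted p = 0.407). Without 9 d replicate 1 it was 3.67. At 12 d the same gene had 2253, 492 and 152 FPKM, and at 15 d 475, 612 and 390 FPKM. Before 6 d it had 3.77, 5.63 and 41.5 FPKM at 0 d and 79.5, 19.1 and 61.4 FPKM at 3 d. Replicates 2 and 3 of 9 d thus lay within the range of 3 d, and the libraries of 6 d were the lowest of the course. With library weights, by which the 9 d mean rested mostly on replicate 3, it was called (log2 fold change 3.46, adjusted p = 0.0394 from limma).

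*CIL0893S0010* and *CIL0748S0001*, chosen after the fact by the same measure in the other direction, were lower at 9 d without a call. *CIL0893S0010* had 0.93, 91.4 and 32.2 FPKM in the 9 d libraries, against 223.1, 108.4 and 93.6 FPKM at 6 d. Its level in replicate 1 of 9 d lay within the range of 15 d, where it had 0.74, 2.01 and 8.78 FPKM, while replicate 2 of 9 d was just below the lowest library of 6 d. The gene had 228.4, 189.1 and 218.4 FPKM at 0 d and was already lower at 3 d, with 151.7, 48.8 and 85.7 FPKM. Replicate 2 of 9 d lay within that range of 3 d. At 12 d the gene had 13.2, 73.5 and 1.79 FPKM. Its log2 fold change in limma was -2.87, with a standard error of 1.24 and an adjusted p of 0.699, and without 9 d replicate 1 it was -1.26. *CIL0748S0001* had 0, 1.39 and 15.69 FPKM in the 9 d libraries and 15.7, 18.7 and 38.6 FPKM at 6 d. Replicate 3 of 9 d and replicate 1 of 6 d thus differed only in the last decimal given, and the gene met the rule of no overlap by that margin. This gene had at most 6.18 FPKM in any library of 0 d or 3 d and was listed at 0 in all libraries of 15 d, so 6 d was its highest day. Its log2 fold change in limma was -2.78, with a standard error of 0.82 and an adjusted p of 0.505. It was called when 9 d replicate 3 was left out (adjusted p = 0.0412), whereas library weights gave a log2 fold change of -0.83 (adjusted p = 0.425 from limma).

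**Figure D3:**
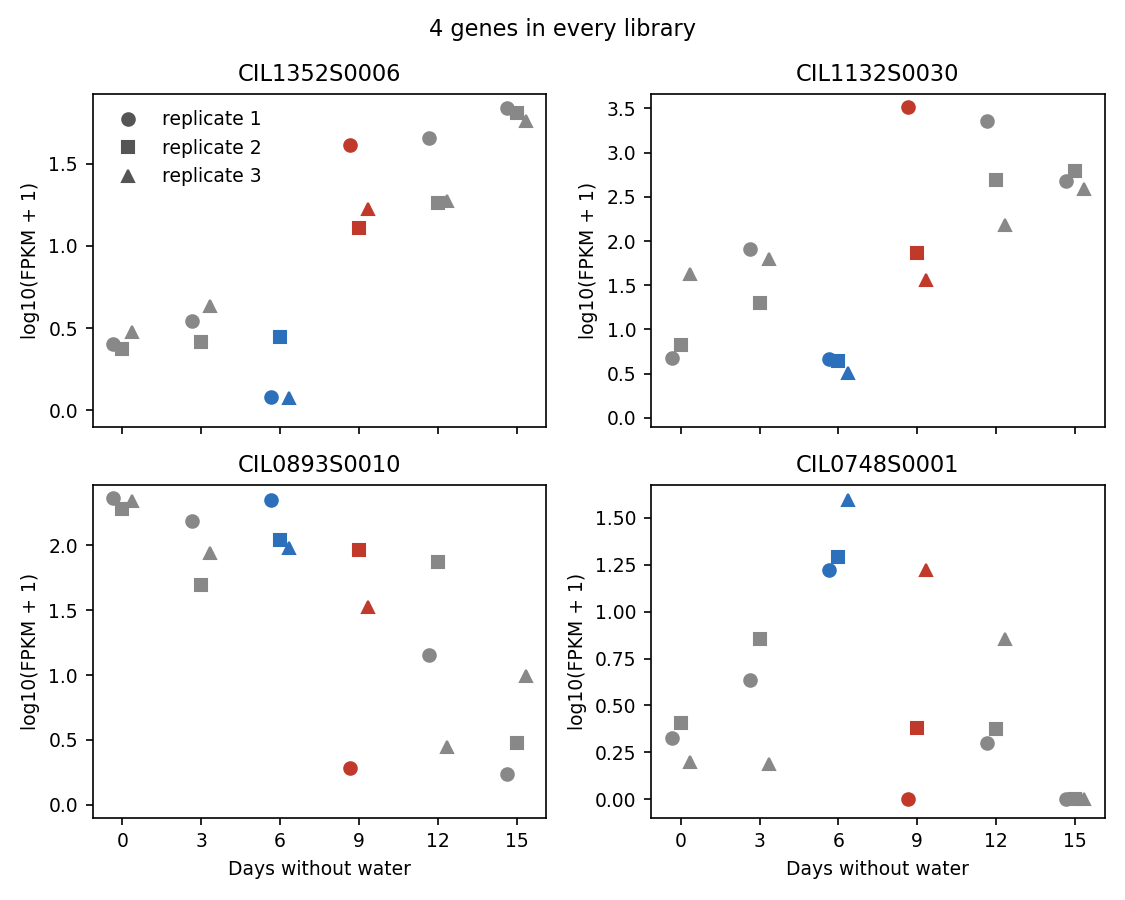
Level of 4 genes as log10(FPKM + 1) in every library against days without water, with 9 d in red, 6 d in blue and the other days in grey. *CIL1352S0006* is the gene called at 9 d (40.2, 11.9 and 15.9 FPKM against 0.21, 1.78 and 0.19 at 6 d), replicate 1 of 9 d lies far from replicates 2 and 3 for *CIL1132S0030* and *CIL0893S0010*, and replicate 3 of 9 d lies near the 6 d libraries for *CIL0748S0001*.

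Genes whose 9 d libraries all lay beyond all 6 d libraries were counted next. The 9 d libraries lay above those of 6 d in 1246 genes (5.19% of those tested) and below in 1312 genes (5.47%). An exact two-sided permutation test of 3 against 3 libraries has its smallest p, 0.1, at such a complete separation. Were the libraries of the days exchangeable, about that share of genes would separate, over both directions together. The 2 shares together are near it, so these counts alone do not set the days apart. After quantile normalization the counts were 1583 above and 1141 below, and after median-ratio scaling 1364 and 1391. The side with more genes thus changed with quantile normalization but not with median-ratio scaling. In the 1246 genes the median distance from the mean of 6 d was 0.61 on the log2 scale in replicate 1, 0.39 in replicate 2 and 0.32 in replicate 3 of 9 d. In the 1312 genes it was -0.75, -0.38 and -0.34. Replicate 1 was thus the farthest library on both sides, and replicates 2 and 3 were alike. A difference of at least 1 was reached by 257 higher and 186 lower genes. The median FPKM of the 257 genes was 24.6, 10.2 and 8.26 at 9 d, against 2.23, 4.18 and 2 at 6 d. That of the 186 genes was 1.07, 4.70 and 5.38 at 9 d, against 10.8, 9.18 and 10.2 at 6 d. The gap between 9 d and 6 d in these medians follows from the choice of the genes. On days that took no part in this choice, the 257 genes had medians of 2.13, 2.85 and 3.11 FPKM at 0 d and of 19.0, 21.2 and 17.6 FPKM at 15 d, and the 186 genes 8.69, 9.46 and 7.81 FPKM at 0 d and 0.77, 0.81 and 1.3 FPKM at 15 d. No gene was listed at 0 in all libraries of one day and at 1 FPKM or more in all libraries of the other. With any value above 0 on the other day there were 25 genes detected only at 9 d, with means of up to 2.97 FPKM, and 28 detected only at 6 d, with means of up to 1.86 FPKM.

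In limma's contrast of 15 d with 0 d, which uses no mean of 9 d or 6 d but the same estimate of the spread, 5195 genes were called higher (21.6%) and 8245 lower (34.3%). The median difference between 9 d and 6 d was 0.18 on the log2 scale for the genes higher at 15 d and -0.25 for those lower at 15 d, beside -0.07 for all genes tested. Among the genes higher at 15 d, 12.5% had all 9 d libraries above all 6 d libraries and 1.62% all below, beside 5.19% and 5.47% of all genes. Among the genes lower at 15 d, 1.52% were above and 9.02% below. Most of this lay in 1 library. For the genes lower at 15 d, the median distance from the mean of 6 d was -0.67 in replicate 1 of 9 d, 0.01 in replicate 2 and -0.07 in replicate 3. For the genes higher at 15 d it was 0.35, 0.07 and 0.09. Without 9 d replicate 1 the medians were 0.08 for the higher and -0.03 for the lower genes.

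To describe what set a library apart, genes were counted in which 1 library of a day lay at least 1 on the log2 scale from both others, which lay within 0.5 of each other. The first replicate of 9 d stood higher in 732 genes (3.05%) and lower in 1678 genes (6.99%). After median-ratio scaling it stood higher in 943 and lower in 1256 genes. Quantile normalization gives every library the same distribution of values and so acts on this balance. It gave 995 higher and 1043 lower genes. Replicate 2 of 9 d stood higher in 328 and lower in 115 genes, and replicate 3 higher in 125 and lower in 62. At 6 d, replicate 3 stood higher in 310 and lower in 1360 genes, whereas replicates 1 and 2 stood higher in 79 and 109 genes and lower in 53 and 16. In all, 3040 genes had a library apart at 9 d and 1927 at 6 d.

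**Figure D4:**
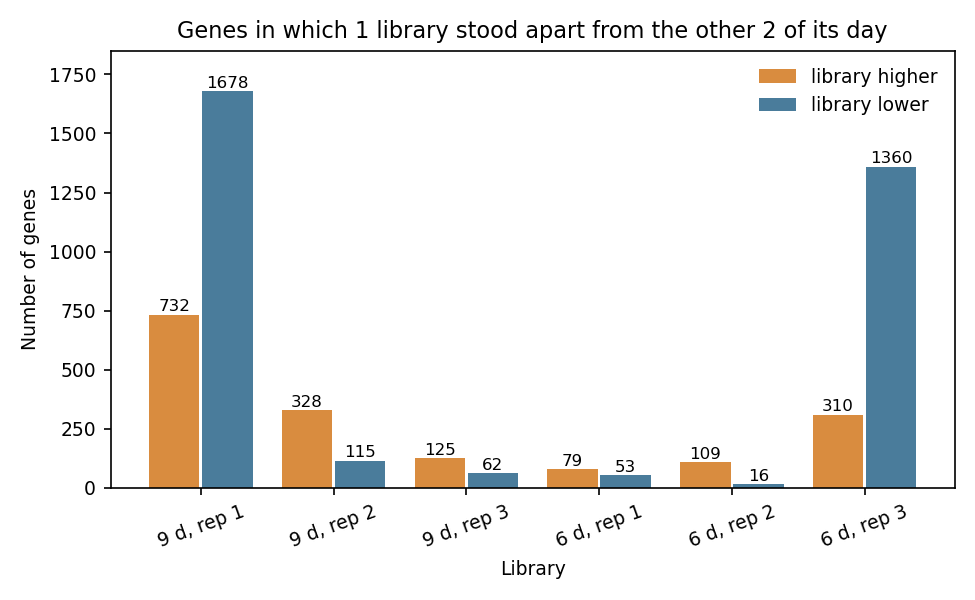
Number of genes in which a library of 9 d (left) or 6 d (right) lay at least 1 on the log2 scale above (orange) or below (blue) both other libraries of its day, which lay within 0.5 of each other. Replicate 1 of 9 d has 732 and 1678 such genes and replicate 3 of 6 d has 310 and 1360.

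Most genes that set replicate 1 of 9 d apart were also called between 15 d and 0 d, in the direction in which this library stood apart. Of the 732 genes in which it stood higher, 76.0% were called higher at 15 d than at 0 d and 1.23% lower, beside 21.6% and 34.3% of all genes tested. Of the 1678 genes in which it stood lower, 80.3% were called lower at 15 d and 2.92% higher. The 732 genes lay at the median 2.36 above the mean of 0 d on the log2 scale in replicate 1 of 9 d, and 0.64 and 0.71 above it in replicates 2 and 3. On 12 d they lay 2.17 above it in replicate 1, 0.67 in replicate 2 and 2.11 in replicate 3, and on 15 d from 2.06 to 2.44. The 1678 genes lay at -1.91 in replicate 1 of 9 d, -0.40 and -0.44 in the other 9 d libraries, -1.58, -0.37 and -1.74 in replicates 1, 2 and 3 of 12 d and -1.96 to -2.58 on 15 d. The libraries of 12 d were thus split in the same genes, with replicate 2 of 12 d next to replicates 2 and 3 of 9 d. Over all 24005 genes, the distance of replicate 1 of 9 d from the mean of its day's other libraries correlated with the difference of 15 d from 0 d at r = 0.698, a description across genes, in which no library enters both measures.

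The genes that set replicate 3 of 6 d apart were fewer, and they were low in libraries of several days. Of the 1360 genes in which it stood lower, 26.3% were called lower at 15 d and 15.2% higher, beside 34.3% and 21.6% of all genes tested. These genes lay at a median of -0.997 from the mean of 0 d in replicate 3 of 6 d, and at 0.73 and 0.70 in replicates 1 and 2. They were also low in replicate 2 of 3 d (-0.80, against 0.54 and 0.39 in replicates 1 and 3 of 3 d) and in replicate 3 of 0 d (-0.41, against 0.15 and 0.27 in the other 0 d libraries). In the late libraries they were low as well, from -0.34 to -0.85 at 12 d and from -0.39 to -0.81 at 15 d, and their median difference of 15 d from 0 d was -0.67, beside -0.25 for all genes tested. In replicates 1, 2 and 3 of 9 d they lay at -0.81, 0.34 and -0.22. The distance of replicate 3 of 6 d from the other 6 d libraries correlated over all genes at r = 0.542 with that of replicate 2 of 3 d, at 0.580 with that of replicate 3 of 0 d, and at 0.117 with the difference of 15 d from 0 d. The share of this pattern in the 6 d means, and so in the comparison, was not tested. Without 6 d replicate 3, limma called 2 genes higher and 4 lower.

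**Figure D5:**
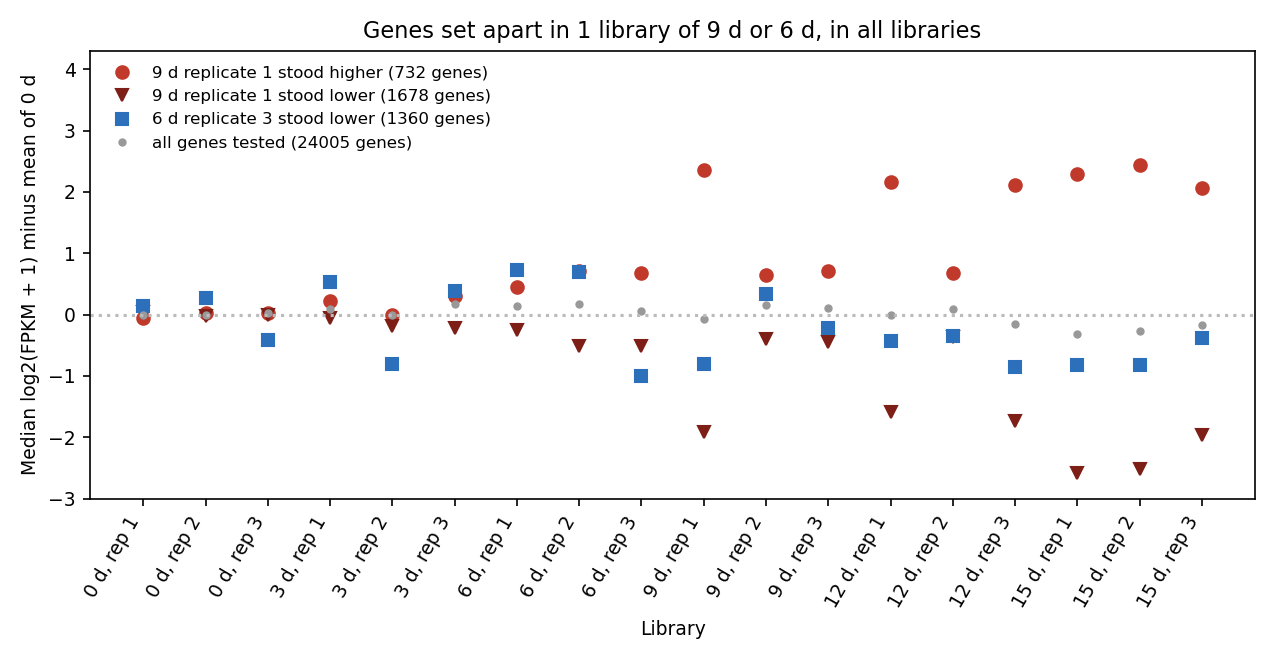
Median over genes of log2(FPKM + 1) minus the mean of 0 d in each of the 18 libraries, for the 732 and 1678 genes that set replicate 1 of 9 d apart (red circles and dark triangles), the 1360 genes in which replicate 3 of 6 d stood lower (blue squares) and all 24005 genes tested (grey). The 732 genes lie within the range of 15 d in replicate 1 of 9 d and in replicates 1 and 3 of 12 d, the 1678 genes lie in these 3 libraries between the other 9 d libraries and 15 d, and the 1360 genes are low in replicate 3 of 6 d, replicate 2 of 3 d and replicate 3 of 0 d and again at 12 d and 15 d.

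The most abundant transcripts of replicate 1 of 9 d also differed from those of the other libraries. The leading one had 8764 FPKM, 1.59% of the library, against 280 and 555 FPKM in the other 9 d libraries and 116, 176 and 122.8 FPKM at 6 d. This transcript had 9.0 to 24.2 FPKM at 0 d, 4791 and 6915 FPKM in replicates 1 and 3 of 12 d but 166 FPKM in replicate 2, and 4858 to 5565 FPKM at 15 d. The next had 6462 FPKM, against 231 and 1214 FPKM in the other 9 d libraries and 170, 171 and 181 FPKM at 6 d. Neither was called between the days (adjusted p = 0.689 and 0.638 from limma, n = 3 each). Of its 100 most abundant transcripts, replicate 1 of 9 d shared 30 and 37 with replicates 2 and 3 of its day and 29, 36 and 32 with replicates 1, 2 and 3 of 6 d. It shared 78 with replicate 1 of 12 d and 50 to 53 with the libraries of 15 d.

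The identifiers hold a scaffold and a running number, and neighbours by this number were compared. Of the genes in which replicate 1 of 9 d stood higher, 684 had a next tested gene on their scaffold, and in 44 of these pairs (6.43%) the next gene also stood higher, beside 3.05% of all genes. For the genes in which it stood lower the share was 7.85%, beside 6.99% of all genes, and for the genes in which replicate 3 of 6 d stood lower it was 8.52%, beside 5.67%. Neighbouring genes can be copies of each other that share reads, which RSEM divides between them, and whether they did was not tested.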

How the data were processed

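Leaf RNA of 18 libraries was sequenced on an Illumina platform. The authors computed FPKM with RSEM, and the deposited FPKM, 1 value for each gene in each library, have 2 decimals. The submitters' processing notes also list fastp 0.18.0, Bowtie2 2.2.8, HISAT2 and StringTie 1.3.1, and the genome build and annotation are not given in the sources used here. Columns were matched to libraries by title, and 0 were left aside. FPKM keeps no fragment counts, so only relative depth was estimated, from the steps of 2966 genes with low values (98.7% of library pairs lay within a log2 distance of 0.05 from the depths so estimated), and no counting interval can be given.

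Values were used as log2(FPKM + 1), a scale that understates the change of low genes, without further scaling. Genes averaging at least 0.1 FPKM in the 6 libraries entered a linear model in limma 3.58.1 under R 4.3.3 (a mean for each day, 18 libraries, eBayes with trend, two-sided, Benjamini-Hochberg adjustment, calls at an adjusted p under 0.05). The fit was tested on simulated data, with independent genes and the same spread of a gene on every day. Days of unequal spread and a library set apart in many genes were not simulated. Each library is a separate biological sample according to the study's methods. Named genes were to be the 2 largest changes each way among called genes without overlap and with a mean of at least 10 FPKM, and since 1 gene qualified, 3 more were taken without the call. The comparison, groups of genes and tests were chosen with earlier results of these data known. Alternatives were the fit of 6 libraries, a replicate block, quantile normalization, median-ratio scaling, a pseudocount of 0.1, other filters, library weights, a log2 fold change of at least 1, and each library left out. Descriptions and figures were made in Python 3.11.15 (matplotlib 3.10.9, scipy 1.17.1, pandas 2.3.3, numpy 2.4.6).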

Additional observations from a re-analysis of the deposited data

How the results depend on the processing

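The calls between 9 d and 6 d depended on single libraries. With 1 of the 18 libraries left out, the higher genes numbered from 0 to 8 and the lower genes from 0 to 28, with both highest without 9 d replicate 3. The fit of the 6 libraries alone called 0 higher and 0 lower genes. It had 1009 of 24005 genes at an unadjusted p under 0.05, a share below 0.05. Library weights, by which the 9 d mean rested mostly on replicate 3, called 150 and 285. Without 12 d replicate 2 there were 7 higher and 3 lower. The other alternatives called 1 higher gene and 0 lower. The replicate block also gave 1 higher and 0 lower gene. Same-numbered libraries of 9 d and 6 d deviated together at -0.433, 0.232 and 0.147 for numbers 1, 2 and 3. Not every library correlated best with its own number (of 9 d only replicate 3 did, of 6 d only replicate 2). Between 9 d and 12 d the same-numbered libraries deviated together at 0.591, 0.572 and -0.206. The labels give only a number, and whether same-numbered samples shared a batch was not tested.

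The difference in position between 9 d and 6 d stayed positive under all alternatives, from 0.039 without 9 d replicate 1 to 0.269 without 9 d replicate 2, and quantile normalization placed 6 d replicate 2 at 0.390. The median difference of all genes was 0.00709 after quantile normalization and -0.0429 after median-ratio scaling. With a pseudocount of 0.1, the median SD was 0.474 on 9 d and 0.327 on 6 d, and on the other days 0.247 (0 d), 0.376 (3 d), 0.517 (12 d) and 0.254 (15 d).

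Counts of genes that set a library apart moved as well. With a gap of at least 2, replicates 1, 2 and 3 of 9 d stood higher in 177, 39 and 21 genes and lower in 253, 16 and 3, and those of 6 d higher in 3, 25 and 19 genes and lower in 1, 1 and 372. The other alternatives for these counts, and the medians of genes called at 15 d without 9 d replicate 1, were chosen after seeing the data. With a pseudocount of 0.1, replicates 2 and 3 of 9 d stood higher in 687 and 331 genes and replicates 1, 2 and 3 lower in 2529, 258 and 228, and those of 6 d stood higher in 244, 343 and 572 genes and lower in 249, 156 and 2073. Quantile normalization gave 1043 lower genes for 9 d replicate 1, 72 higher and 25 lower for 6 d replicate 2 and 566 higher for 6 d replicate 3. The cause of these shifts was not tested. FPKM without counts and 3 libraries a day limit the precision.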
